A study of Gallus gallus with 6 samples.

Results

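Genes that carry, store and release fatty acids, 10 in all, were followed in the oviduct of breeder hens, at its uterovaginal junction. They are the fatty acid binding proteins FABP3, FABP4, FABP5 and FABP7, the lipoprotein lipases LPL and LIPG, the lipid droplet coat protein PLIN2, the intracellular lipase LIPE, the mitochondrial gatekeeper CPT1A and the lipid sensor PPARA. They were taken by name, with earlier results of these data known. The table names 9 of them by symbol. LIPE has no symbol there and was found through the NCBI gene number in the description of its row. The number of calls is therefore given with and without it, and the other counts include it. They make 10 of 20285 rows, and each had enough counts to be tested.

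The heat stress group held 3 libraries from hens at 36 °C for 6 h, and the thermoneutral group held 3 libraries from hens at 23 °C. The sources used here state neither breed nor age, and the labels name no other treatment. RNA of 4 hens went into each library, 24 tissues in all, so a replicate is a pool and p-values measure the spread between pools. The study asked how acute heat alters the transcripts of this segment.

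The uterovaginal junction lies between the shell gland and the vagina of the hen and carries the sperm storage tubules, in which sperm survive between matings. Fatty acids reach a tissue bound to albumin or are cut from lipoprotein triglyceride and phospholipid by lipases on the vessel wall. Inside the cell, binding proteins ferry them to droplets for storage, to mitochondria and peroxisomes for oxidation, and to nuclear receptors of the PPAR family, which sense them. Lipid from the lining of the storage tubules has been proposed to feed resident sperm.

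The libraries held 23944263 to 29502991 counts under heat stress and 23438814 to 24959902 at thermoneutrality, and the 10 most counted genes took 6.20% to 7.55% of them under heat stress and 4.20% to 4.95% at thermoneutrality. On the first principal component (46.8% of the variance) the heat stress libraries scored 10.9, 44.1 and 37.1 and the thermoneutral ones −27.1 to −33.7, so heat stress replicate 1 lay nearest to the thermoneutral group. EPCAM of epithelium averaged 2360 CPM (counts scaled to an equal library size) under heat stress and 1998 CPM at thermoneutrality. FOXJ1 of ciliated cells averaged 524 CPM under heat stress and 538 CPM at thermoneutrality, and the progesterone receptor PGR 591 CPM under heat stress and 521 CPM at thermoneutrality. Of 11 markers of magnum or uterus secretion, only 5 were matched to a row. These 5 summed to 86.1 to 108 CPM under heat stress and 74.2 to 89.9 CPM at thermoneutrality. OVAL, SPINK7, TF, OC116, CALB1 and SPP1 were not matched to a row, so their levels are not known here. The rest of these marker lists did not all move as the named genes did. Of 9 epithelial markers tested 5 had a positive log2 change (heat stress minus thermoneutral) and 4 a negative one, and 1 was called lower (11.1%). Of 9 ciliated cell markers 1 was positive and 8 negative, and 2 were called lower (22.2%, against 19.8% of all genes tested). Of the 2 hormone receptors 1 was positive and 1 negative, the latter lower without overlap, and 0 were called. Whether these genes tell this segment of the oviduct from others was not tested.

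FABP3, LIPG and LIPE were lower under heat stress, PPARA was higher, and 6 genes did not pass. Calls rest on an adjusted p under 0.05 (Benjamini-Hochberg, over 15655 genes) in the quasi-likelihood test of edgeR. By symbol in the table alone, without LIPE, 2 genes were lower and 1 was higher. Of all genes tested 19.8% passed, 9.52% lower and 10.2% higher. Upper-quartile scaling split the calls over all genes into 1265 higher and 1789 lower, where the fit used here gave 1602 and 1490, and it left the same 4 genes called in the same directions. The median log2 change (heat stress minus thermoneutral) was −0.08 over the 10 genes and −0.01 over all genes tested. The groups of 3 did not overlap for 5 of the 10 genes, 4 lower and 1 higher, against 42.6% of all genes tested. The 4 calls did not all hold in any fit with 1 library left out. Leaving out heat stress replicate 1, 2 or 3 in turn left 3, 2 and 0 of the 10 genes called. Leaving out thermoneutral replicate 1, 2 or 3 left 2, 0 and 1. Over all genes the same omissions left 3690, 1467, 313, 1738, 445 and 1232 calls.

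**Figure D1:**
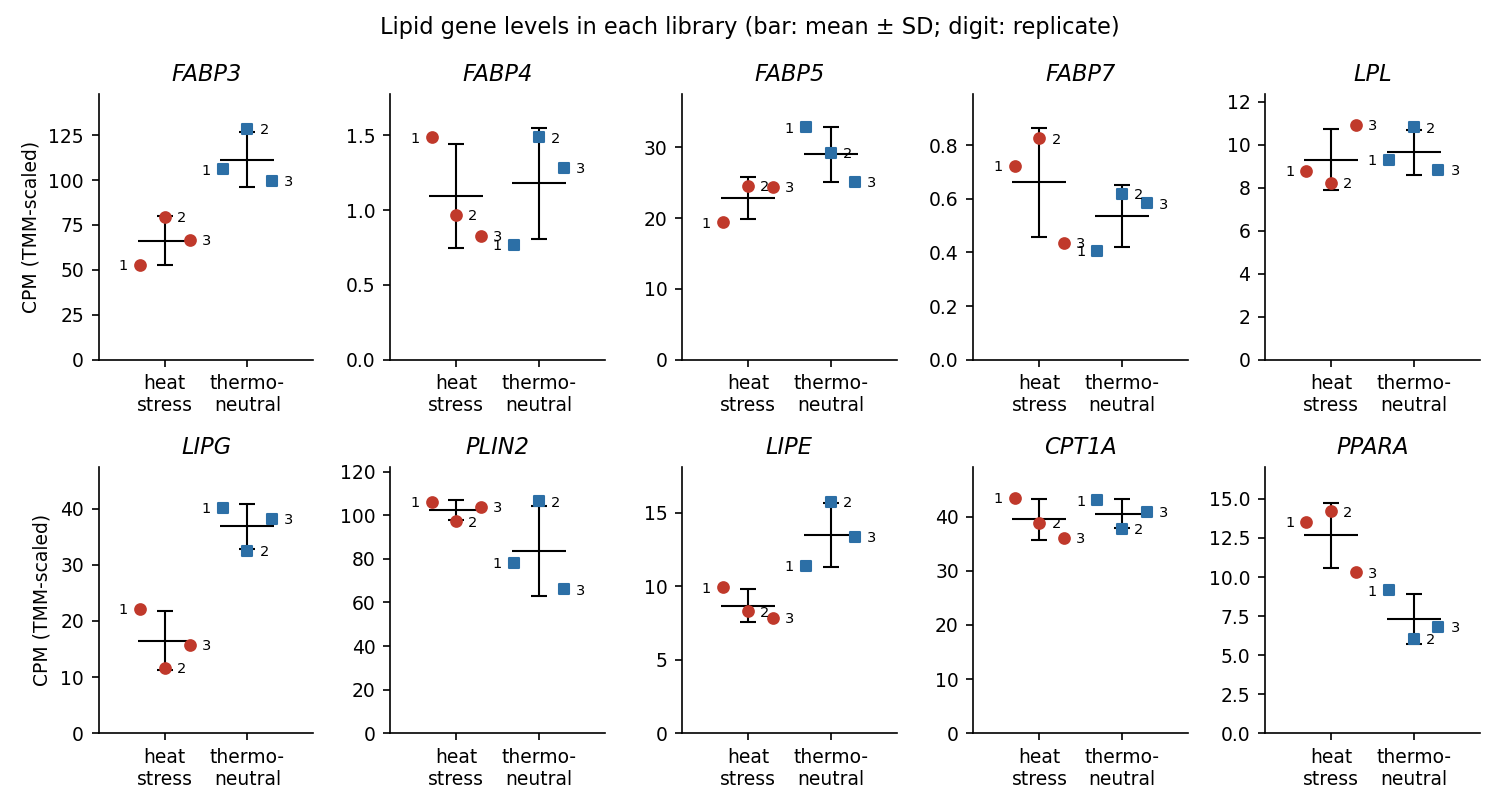
Level of each of the 10 genes in CPM (linear axes from 0), 1 point per library with its replicate digit, heat stress as red circles and thermoneutral as blue squares; the horizontal line is the mean and the whiskers are ± 1 SD (n = 3 libraries). The groups stand apart for FABP3, FABP5, LIPG and LIPE, which are lower under heat stress, and for PPARA, which is higher; PLIN2 overlaps through thermoneutral replicate 2.

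FABP3 was the binding protein with the highest level and the one that fell. It is the heart-type fatty acid binding protein, a small cytosolic carrier known from muscle and other tissues that burn fatty acids. Its row lies on chromosome 23, 703621 to 707046, on the minus strand of the build GRCg6a. FABP3 had 52.7, 79.6 and 66.6 CPM in heat stress replicates 1, 2 and 3, against 106, 129 and 99.5 CPM in thermoneutral replicates 1, 2 and 3. All 3 heat stress libraries were below all 3 thermoneutral ones, and replicate 2 was the highest in each group. FABP3 averaged 66.3 ± 13.4 CPM under heat stress and 111 ± 15.3 CPM at thermoneutrality (SD, n = 3 each). The log2 change of FABP3 was −0.75 (SE 0.16, 95% interval −1.13 to −0.36), 1.68-fold lower under heat stress, with an adjusted p of 0.0232 in edgeR's quasi-likelihood test. Its adjusted p was 0.0853 without heat stress replicate 3, and 0.0554 and 0.0751 when thermoneutral replicate 1 or 2 was left out.

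The summed level of markers of striated muscle, where FABP3 is abundant, was lower too, and 1 gene made up most of it. Over the 9 matched markers the summed level was 26.3 to 42.3 CPM under heat stress and 53.2 to 102 CPM at thermoneutrality, without overlap. Most of it was ACTA1, skeletal alpha-actin, at 30.1 CPM under heat stress and 75.2 CPM at thermoneutrality. ACTA1 was the 1 marker of 4 tested that was called (25%, against 19.8% of all genes tested). Of the 4, 3 had a negative log2 change and 1 a positive one. MYL2, TNNT2, TNNC2, MYBPC1 and MB, which encode defining proteins of heart and skeletal fibres, were under 1 CPM in every library. Smooth muscle markers summed to 5391 to 7176 CPM under heat stress and 5664 to 9106 CPM at thermoneutrality, with overlap. All 11 tested had a negative log2 change, with a median of −0.39, and 1 was called (9.09%). Fibroblast markers overlapped too, at 4043 to 4250 CPM under heat stress and 3726 to 5512 CPM at thermoneutrality. All 10 had a negative log2 change and 3 were called (30%). In bulk tissue, fewer cells of a type and less RNA per cell cannot be told apart, and the part of muscle cells or fibroblasts in the fall of FABP3 was not tested.

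FABP5 pointed the same way as FABP3 and did not pass. It is the epidermal-type binding protein, known from epithelium, fat and macrophages, and lies on chromosome 2, 121272547 to 121278022, on the plus strand. FABP5 had 19.4, 24.6 and 24.5 CPM in the heat stress libraries, against 32.8, 29.2 and 25.1 CPM in the thermoneutral ones. The groups did not overlap, but the highest heat stress library and the lowest thermoneutral one almost met. Its log2 change was −0.35 (SE 0.14, 95% interval −0.67 to −0.03), and the adjusted p in edgeR's quasi-likelihood test was 0.108.

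FABP4, the adipocyte-type binding protein, and FABP7, the brain-type protein known from glia, were barely present. FABP4 lies 71969 bases from FABP5 on the same chromosome, at 121349992 to 121353429 on the minus strand, inside a row of the other strand that had at most 3 counts in any library. FABP4 had 37, 27 and 19 counts in the heat stress libraries, against 19, 36 and 33 counts in the thermoneutral ones. The groups overlapped, and the log2 change of FABP4 was −0.11 with a 95% interval of −0.97 to 0.76, that is from 0.510-fold to 1.69-fold.

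FABP7 (chromosome 3, 61282801 to 61286154, minus strand) had 18, 23 and 10 counts under heat stress, against 10, 15 and 15 counts at thermoneutrality. Its log2 change was 0.31 with an interval of −0.60 to 1.22, so neither direction was detectable at this depth. Markers of fat were mixed beside these levels. PLIN1 and CIDEC, which coat and enlarge the droplets of fat cells, were under 1 CPM in every library, as were THRSP and TRARG1. ADIPOQ, the fat hormone adiponectin, averaged 199 ± 33.9 CPM under heat stress and 268 ± 46.1 CPM at thermoneutrality (SD, n = 3 each). Over 9 matched adipocyte markers the summed level was 429 to 708 CPM under heat stress and 520 to 824 CPM at thermoneutrality, with overlap, and 0 of 7 tested passed in edgeR's quasi-likelihood test. PNPLA3, which varied widely in both groups, carried that overlap. Without it, an omission chosen after seeing the data, the sums were 216, 280.2 and 270.1 CPM under heat stress and 280.5, 362 and 355 CPM at thermoneutrality. ADIPOQ made up most of these sums on average, and the groups stood apart only by 280.2 against 280.5 CPM. Of the 7 markers tested, 3 had a positive log2 change and 4 a negative one. Among glial markers PMP2, the peripheral myelin member of the binding protein family, was under 1 CPM in every library. The summed level of the 8 glial markers used was 255 to 322 CPM under heat stress and 239 to 249 CPM at thermoneutrality, without overlap. Of 7 tested, 1 rose, the myelin gene MBP (14.3% called, against 19.8% of all genes tested). The part of glia in the level of FABP7 was not tested.

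Set per transcript length, in the authors' FPKM (read fragments scaled to transcript length and library size), the binding proteins came out as one abundant, one moderate and 2 scarce genes. The 4 genes summed to 77.4, 107 and 92.9 FPKM in the heat stress libraries, against 156, 182 and 142 FPKM in the thermoneutral ones. FABP3 made up 81.5%, 85.1% and 83.4% of that sum under heat stress, against 86.1%, 88.6% and 87.5% at thermoneutrality. Neither the sum nor the share overlapped between the groups, and each had p = 0.1 in a two-sided exact permutation test, the smallest that 3 against 3 libraries can give. The ratio of FABP3 to FABP5 was 6.02 ± 0.626 under heat stress and 8.04 ± 1.23 at thermoneutrality (SD, n = 3 each), with overlap and p = 0.2 in the same exact permutation test. The share of FABP5 was 13.9% ± 1.14 under heat stress and 11.03% ± 1.61 at thermoneutrality, also with p = 0.2 in the exact permutation test. These shares and ratios describe the same counts as the tests above and add no separate evidence.

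LIPG had the largest fall of the 10 genes, and its relative LPL did not pass. LIPG is endothelial lipase, which is anchored on vessel walls and cuts phospholipid of high-density lipoprotein; macrophages make it too. It lies on chromosome Z, 1061896 to 1069535, on the minus strand. LIPG had 22.2, 11.7 and 15.7 CPM in the heat stress libraries, against 40.1, 32.4 and 38.1 CPM in the thermoneutral ones. Every heat stress library was below every thermoneutral one, with heat stress replicate 1 nearest to them. The log2 change of LIPG was −1.16 (SE 0.22, 95% interval −1.69 to −0.63), 2.24-fold lower under heat stress, with an adjusted p of 0.0176 in edgeR's quasi-likelihood test. Without heat stress replicate 3 the adjusted p was 0.0747, and without thermoneutral replicate 1, 2 or 3 it was 0.0522, 0.0537 and 0.0543.

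LPL is lipoprotein lipase, which frees fatty acids from the triglyceride of chylomicrons and very low density lipoprotein. It lies on the same chromosome, 54612204 to 54628981, on the minus strand. LPL had 8.80, 8.21 and 10.9 CPM in the heat stress libraries, against 9.30, 10.8 and 8.82 CPM in the thermoneutral ones. The thermoneutral libraries lay within the range of the heat stress ones. LPL had a log2 change of −0.05 (SE 0.16), with an adjusted p of 0.846 in edgeR's quasi-likelihood test. Its 95% interval ran from −0.43 to 0.33, that is from 0.740-fold to 1.26-fold. The ratio of LIPG to LPL in FPKM was 5.07, 2.86 and 2.90 under heat stress, against 8.68, 6.04 and 8.71 at thermoneutrality. This ratio had p = 0.1 in the two-sided exact permutation test, again the smallest possible. It adds no separate evidence to the tests of LIPG and LPL.

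The summed markers of the cells known to make LIPG behaved differently from each other. The summed level of 14 endothelial markers was 890 to 906 CPM under heat stress and 875 to 972 CPM at thermoneutrality, with overlap. Of them 2 fell, EGFL7 and ROBO4, both at adjusted p under 0.05 in edgeR's quasi-likelihood test (14.3% called). The other 12 did not pass, among them PECAM1, CDH5, KDR and VWF. Of the 14, 9 had a negative log2 change and 5 a positive one, and 6 were lower without overlap and 0 higher. Over all 15655 genes tested, 3294 were lower without overlap and 3370 higher. The summed level of 12 macrophage markers was 669 to 961 CPM under heat stress and 975 to 1150 CPM at thermoneutrality, without overlap. Of these, 5 fell: C1QA, C1QB and C1QC of the first complement component, VSIG4 and IRF8. That is 41.7% called, against 19.8% of all genes tested, of which 9.52% were lower. Of the 12, 8 were lower without overlap and 0 higher. The part of macrophages in the fall of LIPG, and in those of FABP3 and LIPE, was not tested.

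Storage and release of triglyceride inside cells were represented by PLIN2 and LIPE. PLIN2, perilipin 2, coats the lipid droplets of most cells and protects them from lipases; it lies on chromosome Z, 33602917 to 33617017, on the minus strand. PLIN2 had 106, 97.2 and 104 CPM in the heat stress libraries, against 78.1, 106 and 66.0 CPM in the thermoneutral ones. The heat stress libraries lay close together. Thermoneutral replicate 2, at 106.43 CPM, lay just above the highest of them, at 106.03 CPM. PLIN2 averaged 102 ± 4.57 CPM under heat stress and 83.5 ± 20.8 CPM at thermoneutrality (SD, n = 3 each). The log2 change was 0.29 (SE 0.16, 95% interval −0.09 to 0.68), with an adjusted p of 0.241 in edgeR's quasi-likelihood test. Without thermoneutral replicate 2 the log2 change of PLIN2 was 0.51, with an adjusted p of 0.0523, and without thermoneutral replicate 3 it was 0.15, with an adjusted p of 0.493.

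LIPE, hormone-sensitive lipase, cuts diacylglycerol and cholesterol esters in droplets after protein kinase A activates it. Its row lies on chromosome 14, 16016858 to 16037621, on the minus strand. LIPE had 9.92, 8.28 and 7.82 CPM in the heat stress libraries, against 11.4, 15.8 and 13.4 CPM in the thermoneutral ones. The groups did not overlap, with heat stress replicate 1 the highest of its group and thermoneutral replicate 1 the lowest of the other. The log2 change of LIPE was −0.64 (SE 0.17, 95% interval −1.03 to −0.25), 1.56-fold lower under heat stress, with an adjusted p of 0.0362 in edgeR's quasi-likelihood test. Its adjusted p was 0.0923 and 0.119 when heat stress replicate 2 or 3 was left out, and 0.126 and 0.0872 when thermoneutral replicate 2 or 3 was. The ratio of PLIN2 to LIPE in FPKM was 14.1, 15.4 and 17.4 under heat stress, against 9.01, 8.88 and 6.49 at thermoneutrality. This ratio had p = 0.1 in the two-sided exact permutation test, the smallest possible. It adds no separate evidence to the tests of PLIN2 and LIPE.

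CPT1A, which makes acylcarnitines at the outer mitochondrial membrane and sets the pace of fatty acid entry for oxidation, gave the narrowest interval of the 10 genes. It lies on chromosome 5, 16814154 to 16844218, on the minus strand. CPT1A had 43.5, 38.9 and 36.1 CPM in the heat stress libraries, against 43.0, 37.7 and 40.8 CPM in the thermoneutral ones. The values were interleaved. CPT1A had a log2 change of −0.04 (SE 0.10), with an adjusted p of 0.816 in edgeR's quasi-likelihood test. Its 95% interval ran from −0.26 to 0.19, which leaves room for changes between 0.834-fold and 1.14-fold.

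PPARA, the nuclear receptor that binds fatty acids and, in mammals, turns on genes of their oxidation in the fasted liver, was the 1 gene of the 10 that rose. It lies on chromosome 1, 71237629 to 71271740, on the plus strand, and an unnamed row of the other strand begins 105 bases beyond its end with at most 11 counts in a library. PPARA had 13.5, 14.2 and 10.3 CPM in the heat stress libraries, against 9.14, 6.03 and 6.80 CPM in the thermoneutral ones. The lowest heat stress library, replicate 3, was above the highest thermoneutral one, replicate 1. PPARA averaged 12.7 ± 2.09 CPM under heat stress and 7.32 ± 1.62 CPM at thermoneutrality (SD, n = 3 each). The log2 change was 0.79 (SE 0.20, 95% interval 0.32 to 1.27), 1.73-fold higher under heat stress, with an adjusted p of 0.0344 in edgeR's quasi-likelihood test. The call for PPARA held in 1 of 6 fits that left out a library, the one without thermoneutral replicate 1. The adjusted p was 0.0562, 0.0899 and 0.0598 without heat stress replicate 1, 2 and 3, and 0.111 and 0.0986 when thermoneutral replicate 2 or 3 was left out.

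**Figure D2:**
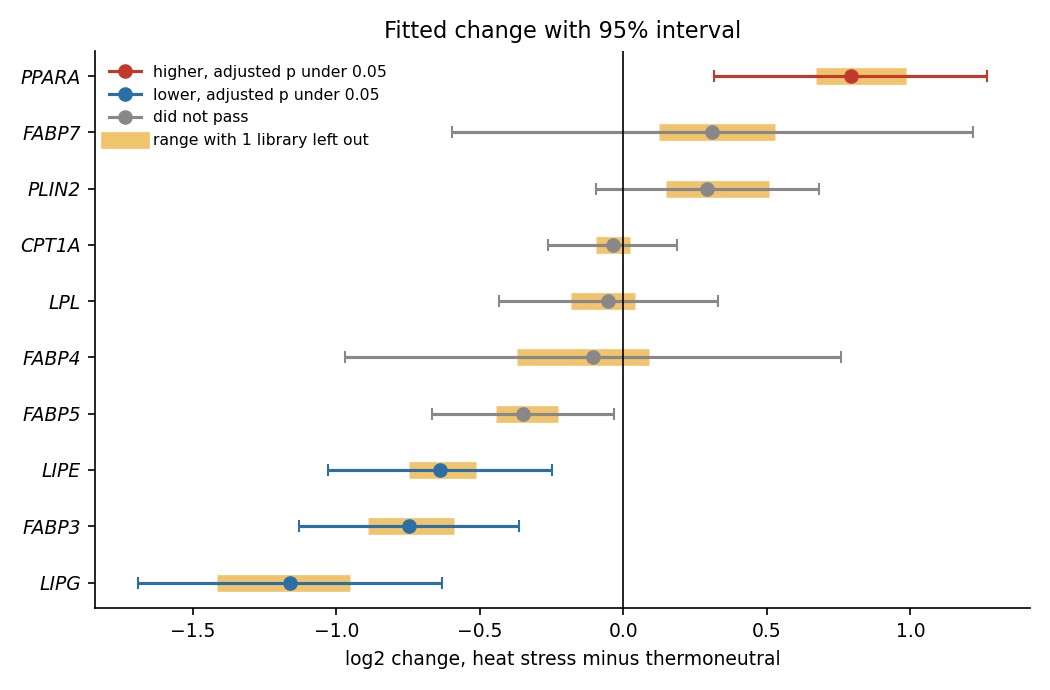
Log2 change (heat stress minus thermoneutral) of the 10 genes from edgeR's fit, with the 95% interval as whiskers; red marks a gene called higher, blue a gene called lower and grey one that did not pass, and the yellow bar spans the change in the 6 fits that each leave out 1 library. The intervals of LIPG, FABP3 and LIPE lie below 0 and that of PPARA above 0; FABP5 also lies just below 0 but did not pass after adjustment, and CPT1A has the shortest interval.

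Per length, FABP3 was the most abundant of the 10 genes and FABP7 the least. Among rows with counts in any library, FABP7 lay at the 30.9th percentile under heat stress and the 27.5th at thermoneutrality. FABP3 averaged 77.2 ± 14.0 FPKM under heat stress and 140 ± 19.0 FPKM at thermoneutrality. That placed it at the 94.2nd percentile of the same rows under heat stress and the 97.1st at thermoneutrality. PLIN2 followed at 42.6 ± 2.83 FPKM under heat stress and 37.3 ± 9.25 FPKM at thermoneutrality. Under heat stress the next genes were CPT1A, FABP5, LIPG and PPARA at 14.4, 12.8, 8.41 and 6.46 FPKM, each overlapping its neighbour in that order. LIPE, LPL and FABP4 then followed at 2.75, 2.34 and 1.54 FPKM, again with overlap, and FABP7 was last at 0.892 FPKM. At thermoneutrality LIPG, FABP5 and CPT1A came next at 20.1, 17.5 and 15.8 FPKM, with overlap between neighbours. LIPE and PPARA followed at 4.59 and 4.01 FPKM, also overlapping, and LPL, FABP4 and FABP7 were last at 2.61, 1.77 and 0.776 FPKM without overlap. LIPG thus stood below CPT1A in all 3 heat stress libraries and above it in all 3 thermoneutral ones, and PPARA stood above LIPE in every heat stress library. The deposited FPKM of LIPE is well above what its counts and its row length of 7026 bases give. Those of PLIN2 and PPARA are above theirs by less. The place of LIPE in this order and the size of the PLIN2 to LIPE ratio thus rest on a length that is not given.

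**Figure D3:**
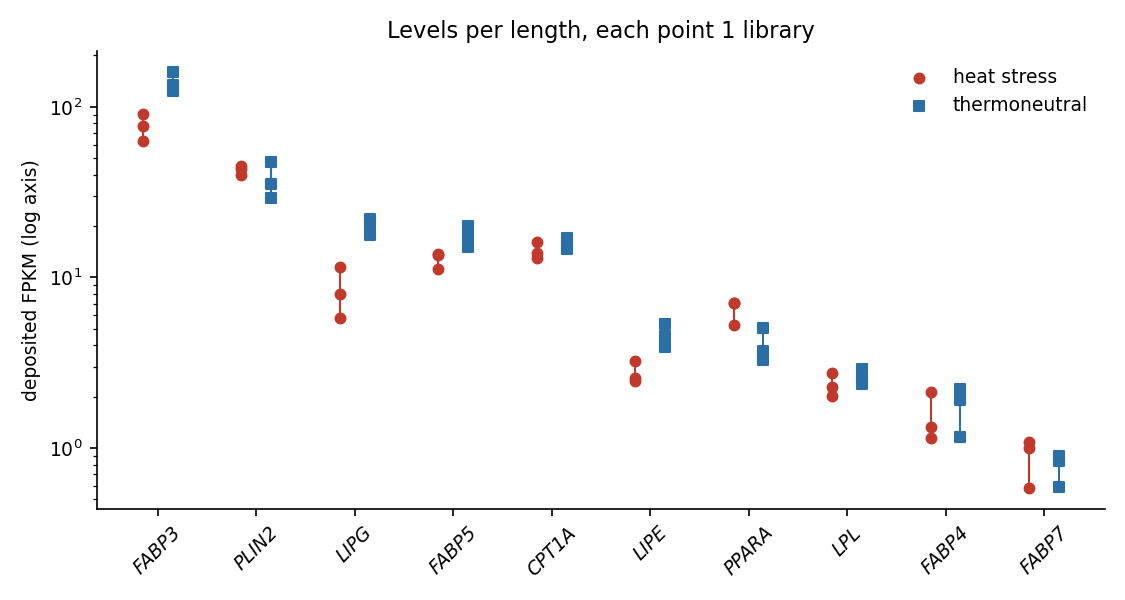
Deposited FPKM of the 10 genes on a log axis, 1 point per library joined within a group, heat stress as red circles left of thermoneutral as blue squares, ordered by the thermoneutral mean. FABP3 is the highest in every library, 77.2 FPKM on average under heat stress and 140 FPKM at thermoneutrality, and FABP7 is the lowest by mean in both groups.

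**Figure D4:**
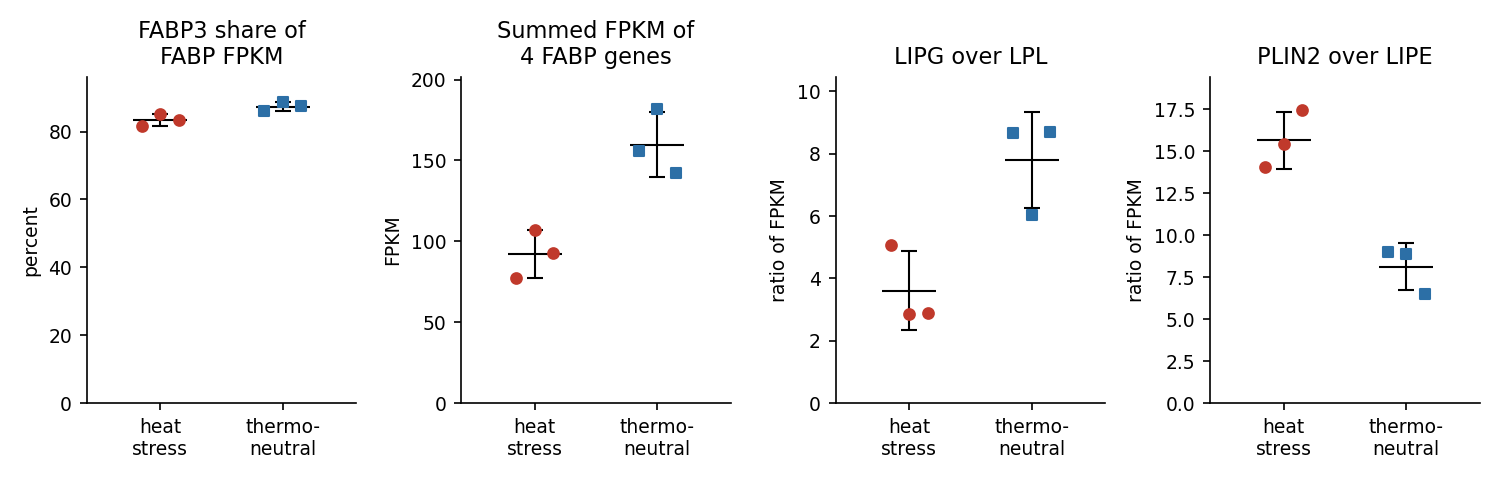
Quantities formed from the FPKM of pairs or groups of genes in each library (linear axes from 0), with the mean as a line and ± 1 SD as whiskers (n = 3 libraries per group): the share of FABP3 among 4 binding proteins, their sum, LIPG over LPL and PLIN2 over LIPE. In all 4 panels the heat stress and thermoneutral libraries do not overlap. Each panel has p = 0.1 in the two-sided exact permutation test, the smallest that 3 against 3 can give. These quantities add no separate evidence to the tests of single genes. Not drawn are the share of FABP5 among the 4 binding proteins and the ratio of FABP3 to FABP5. Both of these overlap between the groups, each with p = 0.2 in the two-sided exact permutation test.

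Around these 10 genes, 9 lists of lipid genes from textbook pathways were read out of the same fit. With the 10 genes left out, 116 tested genes remained, of which 13 rose, 10 fell and 93 did not pass, with a median log2 change of 0.02. That is 19.8% called, the same share as over all genes tested. The lists for uptake, storage and synthesis moved both ways. The counts per list from here on include any of the 10 genes that belong to the list. In uptake, binding and activation, 2 of 21 rose, 4 fell and 15 did not pass (28.6% called). FABP3 was among the 4 that fell, and FABP4, FABP5 and FABP7 were among the 15. SLC27A4, a fatty acid transport protein with acyl-CoA synthetase activity, averaged 73.7 ± 1.88 CPM under heat stress and 57.4 ± 0.174 CPM at thermoneutrality (SD, n = 3 each), with an adjusted p of 0.0127 in edgeR's quasi-likelihood test. Its relative SLC27A3 fell, at 50.0 CPM under heat stress and 66.7 CPM at thermoneutrality (adjusted p 0.0157). DBI, the acyl-CoA binding protein, also fell, at 62.1 CPM under heat stress and 88.5 CPM at thermoneutrality (adjusted p 0.0268).

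In triglyceride synthesis and lipid droplets, 2 of 14 rose, 1 fell and 11 did not pass (21.4% called). CIDEA, which enlarges lipid droplets, averaged 22.7 ± 1.37 CPM under heat stress and 14.7 ± 0.194 CPM at thermoneutrality, with an adjusted p of 0.0104 in edgeR's quasi-likelihood test. Of the enzymes that put the first acyl chain on glycerol phosphate, GPAT3 rose (75.1 CPM under heat stress and 55.1 CPM at thermoneutrality, adjusted p 0.0116) and GPAT4 fell (41.7 CPM under heat stress and 56.3 CPM at thermoneutrality, adjusted p 0.0365). The list median was 0.15, against −0.01 over all genes tested. In fatty acid synthesis, elongation and desaturation, 2 of 20 rose, 1 fell and 17 did not pass (15% called). HACD3, a dehydratase of chain elongation, rose (log2 change 0.45, adjusted p 0.0111), as did the elongase ELOVL7 (0.38, adjusted p 0.0367), which did not pass with upper-quartile scaling (adjusted p 0.0528). MID1IP1, which promotes assembly of acetyl-CoA carboxylase, fell (−0.41, adjusted p 0.0121).

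The called share was 8.33% in intracellular lipolysis and 22.2% among vascular lipases and their partners, against 19.8% of all genes tested. Of 12 genes of intracellular lipolysis 0 rose, and LIPE was the 1 that fell. PNPLA2, the lipase that acts before LIPE, averaged 14.9 CPM under heat stress and 16.3 CPM at thermoneutrality, and MGLL, the monoacylglycerol lipase that acts after it, 278 CPM under heat stress and 276 CPM at thermoneutrality. Next by p was PRKACB, a catalytic subunit of protein kinase A, at 154 ± 1.75 CPM under heat stress and 137 ± 0.600 CPM at thermoneutrality, a difference that did not pass (adjusted p 0.0847 in edgeR's quasi-likelihood test). Of 9 vascular lipases and their partners LIPG was the 1 that fell, and SDC1, a cell surface proteoglycan known to bind lipases and lipoproteins, the 1 that rose. SDC1 averaged 157 ± 36.9 CPM under heat stress and 85.2 ± 12.2 CPM at thermoneutrality, with an adjusted p of 0.0239 in edgeR's quasi-likelihood test.

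The carnitine shuttle and mitochondrial beta-oxidation list, to which CPT1A belongs, had 0 of 18 higher, 4 lower and 14 that did not pass, with a median log2 change of −0.11. The called share was 22.2%, against 19.8% of all genes tested, and without thermoneutral replicate 3 the calls were 1 higher and 2 lower. ETFA, which passes electrons from the acyl-CoA dehydrogenases, averaged 90.5 ± 10.4 CPM under heat stress and 130 ± 1.58 CPM at thermoneutrality (adjusted p 0.0122 in edgeR's quasi-likelihood test). CPT2, the inner-membrane partner of CPT1A, averaged 33.2 ± 3.23 CPM under heat stress and 47.1 ± 1.35 CPM at thermoneutrality (adjusted p 0.0133). ECI1 and ECI2, isomerases for unsaturated chains, were the other members called, at log2 changes of −0.40 and −0.45. The peroxisomal list had 1 rise, 1 fall and 12 genes that did not pass (14.3% called). ABCD2, a peroxisomal importer of long-chain acyl-CoA, rose (35.5 CPM under heat stress and 23.1 CPM at thermoneutrality, adjusted p 0.0102). ABCD4 of the same transporter family fell (14.2 CPM under heat stress and 21.0 CPM at thermoneutrality, adjusted p 0.0255). ABCD4 is known for handling vitamin B12 in lysosomes rather than fatty acids.

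Receptors of the PPAR and RXR families and their coregulators had 5 of 14 higher, PPARA among them, 0 lower and 9 that did not pass. That is 35.7% called, against 19.8% of all genes tested, of which 10.2% were higher. The median log2 change of the list was 0.20. Its calls numbered 5, 0 and 0 without heat stress replicate 1, 2 or 3. They numbered 3, 0 and 0 without thermoneutral replicate 1, 2 or 3. CREBBP and EP300, related acetyltransferases that serve many transcription factors, averaged 143 and 132 CPM under heat stress and 98.9 and 106 CPM at thermoneutrality (adjusted p 0.0181 and 0.0388 in edgeR's quasi-likelihood test). EP300 did not pass with upper-quartile scaling (adjusted p 0.0559). NCOA2, a nuclear receptor coactivator, averaged 60.2 ± 4.95 CPM under heat stress and 43.6 ± 6.05 CPM at thermoneutrality (adjusted p 0.0316), and NCOA3 lay at the threshold (adjusted p 0.04997). NCOA3 did not pass with relative log expression scaling (adjusted p 0.0505), no filter (0.0519), a stricter filter (0.0554) or limma-voom (0.0502), nor with upper-quartile scaling (0.0725). With upper-quartile scaling 3 of the list passed. The other PPAR receptors did not pass: PPARD averaged 75.0 CPM under heat stress and 73.6 CPM at thermoneutrality, and PPARG 20.5 CPM under heat stress and 20.4 CPM at thermoneutrality.

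Of genes known from mammals as PPAR targets, 1 of 19 rose, 2 fell and 16 did not pass, 15.8% called against 19.8% of all genes tested, and the median log2 change was 0.03. PDK4 is a kinase that inhibits pyruvate dehydrogenase. It had 12.1, 29.0 and 19.1 CPM in the heat stress libraries, against 6.75, 7.18 and 6.80 CPM in the thermoneutral ones. All heat stress libraries were above the thermoneutral ones, and they differed among themselves far more. The log2 change of PDK4 was 1.54 (SE 0.30), with an adjusted p of 0.0176 in edgeR's quasi-likelihood test. Both genes that fell, FABP3 and CPT2, are described above, and CPT1A, LPL, FABP4 and PLIN2 were among those that did not pass.

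Many of these calls did not hold with 1 library left out. Of the 30 genes named here outside the 10 that passed, pathway genes and cell markers together, 28, 16 and 2 passed when heat stress replicate 1, 2 or 3 was left out, and 19, 4 and 13 when thermoneutral replicate 1, 2 or 3 was. Over all genes the calls went from 3092 to between 313 and 3690 in those fits, which have fewer samples. The log2 changes kept their sign in them for all 30.

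**Figure D5:**
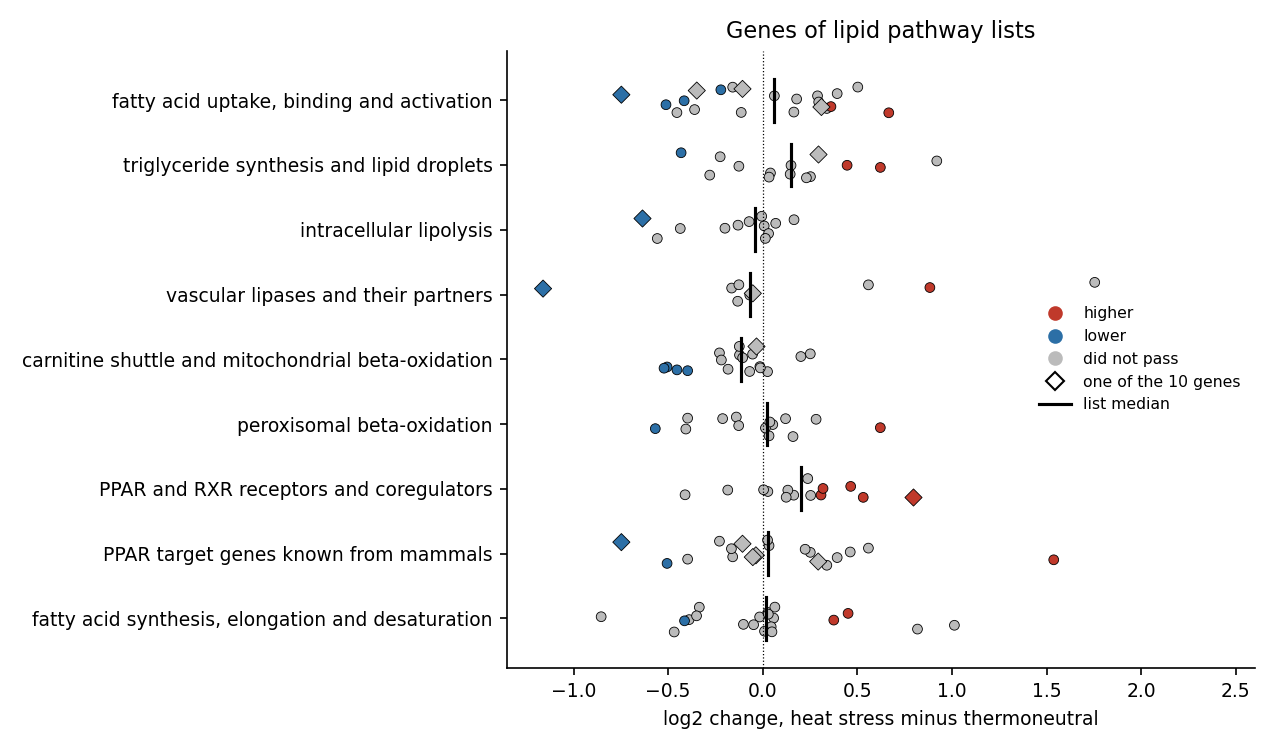
Log2 change (heat stress minus thermoneutral, horizontal axis) of each tested gene in the 9 lipid pathway lists, red where called higher, blue where called lower and grey where it did not pass; diamonds are the 10 genes, the vertical spread within a list has no meaning, and the black line is the list median. Called genes lie on both sides in most lists, on the left alone in mitochondrial beta-oxidation (4) and in intracellular lipolysis (LIPE), and on the right alone among PPAR and RXR receptors and coregulators, the list with the highest median at 0.20.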

How the data were processed

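RNA-seq of 6 libraries was used. Per the labels' protocols, mRNA was selected with poly-T beads and second strands were made with dUTP. The authors deposited raw read counts per gene and FPKM values; per the submitters' processing notes fastp, HISAT2 2.0.5, featureCounts 1.5.0-p3 and the build GRCg6a were used. Whether reads were counted by strand is not given in the sources used here, and overlapping genes are therefore uncertain.

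Counts were tested with the robust quasi-likelihood fit of edgeR 4.0.16 (R 4.3.3) after TMM scaling; filterByExpr, given the groups, left 15655 genes and took out 4630 rows. CPM values are TMM-scaled; FPKM served for levels between genes. The SE is the absolute log2 change over the square root of F. At this depth counting error matters mainly near or under 1 CPM. No library repeated another: chi-square per degree of freedom was 22.1 to 107 between libraries of a group.

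Of 20285 rows 12494 have a symbol; 690 more were named, names only, through RefSeq of the assembly GRCg7b, where LIPE is unplaced. The pathway lists' 168 genes matched 140 rows. The 10 genes and all lists were chosen with earlier results of these data known, so list counts are descriptions. Outside the 10, each pathway list's up to 3 genes that passed with the smallest adjusted p were named (the smallest p where none passed), along with markers near 0 and neighbouring rows; ACTA1, EGFL7, ROBO4, C1QA, C1QB, C1QC, VSIG4, IRF8, EPCAM, FOXJ1, PGR, ADIPOQ, PECAM1, CDH5, KDR, VWF, ECI2, NCOA3, MBP, PPARD, PPARG, PNPLA2 and MGLL were added after their values were seen.

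The alternatives tried were scaling by upper quartile or by relative log expression, DESeq2 1.42.0, limma-voom (limma 3.58.1), a replicate block, each library left out, no filter, and a stricter filter (a mean of 5 CPM and, in every library of 1 group, at least 1 CPM). Promoter motifs and protein comparisons were planned and not made here. One planned glial marker is not reported here and was left out of its list.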

Additional observations from a re-analysis of the deposited data

How the results depend on the processing

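Under DESeq2, limma-voom, scaling by upper quartile or by relative log expression, no filter and a stricter filter, FABP3, LIPG, PPARA and LIPE passed each time in the same direction; the stricter filter left FABP4 and FABP7 untested. With a replicate block LIPE did not pass (log2 change −0.63, adjusted p 0.0619), nor did SDC1 (adjusted p 0.0689), EP300 (0.0667), NCOA3 (0.0718), ROBO4 (0.0706), VSIG4 (0.0705) and ACTA1 (0.0967); 3 of the 10 genes passed, and 2722 genes did over all. Whether replicate numbers pair the libraries was not settled. Deviations from the group means correlated at −0.05, 0.25 and 0.07 for numbers 1, 2 and 3. Heat stress replicate 1 correlated best with thermoneutral replicate 3 (0.21). Heat stress replicate 2 did so with thermoneutral replicate 2 (0.25), and heat stress replicate 3 with thermoneutral replicate 3 (0.07). Deviations within a group of 3 sum to 0, so these few correlations cannot decide it. The block also gave 5 called genes in fatty acid synthesis, 3 in PPAR and RXR coregulators and 1 in vascular lipases, and DESeq2 gave 5 in PPAR targets and upper-quartile scaling 3 in PPAR and RXR coregulators. With 1 library left out, the log2 change ranged from −0.89 to −0.59 for FABP3, −1.42 to −0.95 for LIPG, 0.67 to 0.98 for PPARA and −0.75 to −0.51 for LIPE; 0 to 3 of the 10 genes and 313 to 3690 genes over all passed. Called genes per list then ranged from 0 to 6 in uptake and in PPAR targets, 0 to 5 in triglyceride storage, in mitochondrial beta-oxidation and in PPAR and RXR coregulators, 0 to 4 in peroxisomal beta-oxidation and in fatty acid synthesis, 0 to 2 in vascular lipases and 0 to 1 in intracellular lipolysis. These fits have fewer samples; other causes were not tested. No direction of a called gene among the 10 reversed in any of these fits. FABP4 and FABP7 had 10 to 37 counts a library, so counting error is part of their spread.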

Other observations

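CD36 and PNPLA3, lipid genes of the pathway lists chosen here after their values were seen, varied within both groups far more than the 10 genes did. CD36, a scavenger receptor that takes up long-chain fatty acids, had 279, 57.2 and 115 CPM in heat stress replicates 1, 2 and 3, against 91.6, 70.9 and 194 CPM in thermoneutral replicates 1, 2 and 3. PNPLA3, a lipase and acyltransferase of lipid droplets, had 492, 149 and 276 CPM in the heat stress libraries, against 239, 188 and 469 CPM in the thermoneutral ones. In both genes heat stress replicate 1 and thermoneutral replicate 3 were the highest of their groups and replicate 2 was the lowest in each group. Neither gene passed in edgeR's quasi-likelihood test (adjusted p 0.75 for CD36 and 0.97 for PNPLA3).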
